A study of Rattus norvegicus with 9 samples.

Results

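The genes described here encode parts of the ciliary axoneme and of the transport machinery that builds and serves cilia. They were chosen by symbol, as the protein-coding genes of the families Cfap, Dnah, Dnai, Dnaaf, Drc, Rsph, Tekt, Ift and Bbs with at least 10 counts over the 9 libraries, and 76 of the 32883 genes in the table met this rule. They were read in 2 classes, with 55 genes of the motile axoneme and 21 genes of ciliary transport (13 Ift and 8 Bbs genes). All libraries came from vestibular epithelium of male Long-Evans rats, and each library held the cristae and both utricles of 1 rat. There were 3 libraries each from control rats that drank plain water, from rats that drank 3,3'-iminodipropionitrile (IDPN, 20 mM), which damages vestibular hair cells (HCs), for 3 weeks (IDPN-3wk), and from rats that drank it for 7 weeks (IDPN-7wk). The control group combined animals taken at both times, so the rats' age and the length of exposure cannot be told apart in full. The age itself is not given in the sources used here.

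A vestibular HC carries a bundle of actin-filled stereocilia and, beside the tallest of them, a single true cilium, the kinocilium, which links the bundle to the overlying gelatinous membrane. The kinocilium has the doublet microtubules of a motile axoneme, on which dynein arms, radial spokes and regulatory complexes are mounted. Intraflagellar transport (IFT) carries cargo along any cilium, motile or primary, and the BBSome, built from Bbs proteins with the help of chaperonins, moves membrane proteins out of cilia. Supporting cells and many other cells bear a primary cilium, so transport genes are used by far more cell types than axonemal dynein genes.

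Of the 76 members, 71 had enough counts to be tested, 50 of the axoneme class and all 21 of the transport class. The other 5 (Cfap58l1, Cfap73, Dnah8, Dnah12 and Rsph6a) had 13 to 173 counts over all libraries. The 173 counts of Cfap58l1 came almost wholly from IDPN-3wk replicate 2, at 5.02 CPM (counts scaled to library size, after TMM normalization), with 0.489 CPM in IDPN-7wk replicate 1 and 0 in the other libraries. Levels are not compared between genes, because no transcript lengths were used. The table does not tell the strand used in counting, so a member that overlaps another gene is uncertain.

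Library totals ran from 31100118 to 46018385 counts, so that 3 counts correspond to 0.0611 to 0.101 CPM. Control replicate 3 and IDPN-3wk replicates 1 and 2 stood apart, with 15387 to 15501 genes detected at equal depth against 16829 to 17296 in the other 6 libraries, and values are given below with and without them. The HC markers were well detected, with a summed level of 11150 to 11490 CPM over 35 genes in the controls. Of the 14 listed markers of multiciliated and airway-type epithelium found in the table, none exceeded 0.794 CPM in any library and 4 were at 0 in all libraries. Their sum was 0 to 0.564 CPM in controls, 0.191 to 0.677 CPM in IDPN-3wk and 1.342 to 1.645 CPM in IDPN-7wk. Whether other cells with motile cilia were present was not tested beyond these genes.

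Genes of the motile axoneme were lower in IDPN rats at both times, while those of ciliary transport stayed close to control. In IDPN-3wk, 40 of the 50 tested axoneme genes had a lower fitted level than in controls and the median log2 fold change was -0.52. In IDPN-7wk, 38 of 50 were lower and the median was -0.47. The medians over all 15517 genes tested were -0.00047 and 0.0097. For the 21 transport genes the medians were -0.027 and -0.052, with 12 of 21 lower at each time. The same 3 controls served both comparisons, and no test of the difference between the classes was made.

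Library by library, the axoneme class had no overlap between control and exposed rats. The median of log2 CPM minus the control mean was -0.048, 0.12 and -0.090 in the controls. It was -0.62, -0.42 and -0.50 in the IDPN-3wk rats and -0.37, -0.64 and -0.42 in the IDPN-7wk rats. The exposed rats of the 2 times overlapped, and all 6 lay below the lowest control. The transport class, by contrast, gave -0.030, 0.077 and -0.051 in controls, -0.11, -0.089 and 0.052 in IDPN-3wk and 0.0026, -0.15 and -0.10 in IDPN-7wk, so the groups overlapped by this measure. Summed over its 55 members, the axoneme class amounted in control, IDPN-3wk and IDPN-7wk rats to 1726 ± 116, 1266 ± 82.2 and 1207 ± 65.5 CPM (mean ± SD, n = 3). The transport sums were 993.2 ± 27.1, 941.2 ± 49.0 and 925.1 ± 35.1 CPM. By sum, the IDPN-3wk rats (887.5 to 983.6 CPM) overlapped the controls (969.5 to 1023 CPM), while all 3 IDPN-7wk rats (891.2 to 961.4 CPM) lay below them.

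**Figure D1:**
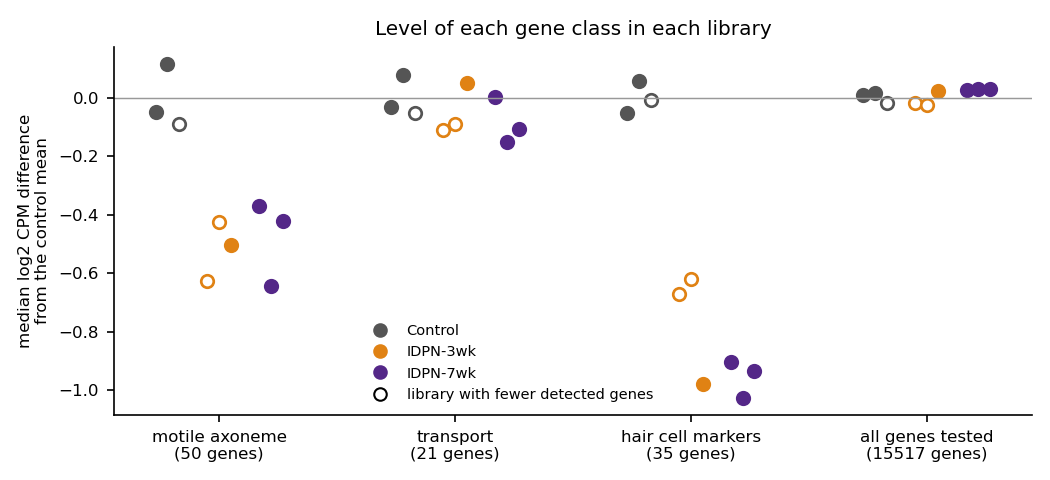
Median over the genes of a class of log2 CPM minus the control mean (vertical axis, log2 units), with 1 point per library for control, IDPN-3wk and IDPN-7wk and open points for the 3 libraries with fewer detected genes. The axoneme points of exposed rats lie between -0.64 and -0.37, below every control, and the transport points lie between -0.15 and 0.077 in all groups.

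Among the 3 libraries that stood apart, the axoneme median for IDPN-3wk against control was -0.41 (2 libraries against 1). Within the other libraries it was -0.63 for IDPN-3wk (1 against 2) and -0.53 for IDPN-7wk (3 against 2). The transport medians in the same order were -0.10, 0.041 and -0.11. These are values without a test, and the shift of the axoneme class was thus present in both sets of libraries.

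The HC markers, like the axoneme genes, were lower than in controls at both times. Their summed level reached 6227 to 7326 CPM at 3 weeks and 4822 to 5207 CPM at 7 weeks. Their median log2 fold changes were -0.68 and -1.0, on a list that includes genes the study picked from these same libraries. Of its 35 genes, 13 were called lower at 3 weeks (37.1%) and 19 at 7 weeks (54.3%). The HC sums of the 2 times did not overlap, and a single HC marker reached 5574 CPM. The axoneme sums did overlap (1202 to 1359 CPM at 3 weeks and 1137 to 1268 CPM at 7 weeks). By library median the HC markers of the 2 times overlapped too, at -0.98 to -0.62 and -1.03 to -0.90. For IDPN-7wk against IDPN-3wk the HC median was -0.037, with 20 of 35 lower and 1 called lower. The axoneme median in that comparison was -0.050. In whole tissue, fewer HCs and less RNA per HC cannot be told apart from these libraries alone. From HC counts in other rats, the study put the HC loss at 3 weeks at a few percent at most. It held a significant loss at 7 weeks to be likely. In other exposed rats it reported lower signal per HC for several, though not all, of the HC genes and proteins it measured. Markers of supporting cells also had a lower sum, 15770 to 16180 CPM in controls, 10160 to 12400 CPM at 3 weeks and 7702 to 9942 CPM at 7 weeks. Such sums are weighted to the most abundant markers, and a single supporting cell marker reached 8545 CPM. The supporting cell medians were -0.29 and -0.35, with 16 and 17 of 20 genes lower. At 3 weeks 1 was called lower and 1 higher, and at 7 weeks 4 were called lower and none higher. Of all genes tested, 1.21% and 3.13% were called lower at 3 and 7 weeks, and 0.438% and 2.00% higher. The calls of every marker list are to be read beside these shares. Schwann cell and glia markers summed to 10290 to 12920 CPM in controls, 8271 to 11020 CPM at 3 weeks and 3691 to 7453 CPM at 7 weeks. Their medians were -0.18 and -0.98, with 9 and 10 of 10 lower and 0 and 3 called lower. Neuron markers summed to 251.4 to 283.2 CPM in controls, 181.4 to 188.1 CPM at 3 weeks and 162.9 to 216.3 CPM at 7 weeks, and dark and transitional cell markers to 1643 to 1908 CPM, 1291 to 1420 CPM and at most 1308 CPM. Of the 12 neuron markers, 7 and 9 were lower (medians -0.35 and -0.24). At each time 2 of them were called lower, and at 7 weeks 1 was called higher. Of the 9 dark and transitional cell markers, 6 were lower at each time (medians -0.096 and -0.29). Of these 9, 1 was called higher at 3 weeks and 2 lower at 7 weeks. Macrophage markers went the other way at 7 weeks, with 78.93 to 134.6 CPM in controls, 55.7 to 153.1 CPM at 3 weeks and 237.7 to 308.1 CPM at 7 weeks (11 of 11 with a higher fitted level, 1 called). Stromal and vessel markers overlapped between the groups by sum (868 to 1200 CPM). Of these 11 genes none was called at 3 weeks, and at 7 weeks 2 were called lower and 1 higher. Melanocyte markers summed to 522.1 to 543.7 CPM in controls and 457.9 to 490.8 CPM at 7 weeks. The part of these shifts in the axoneme result was not tested.

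A differentially expressed gene (DEG) was called at an adjusted p under 0.05 (edgeR quasi-likelihood test, Benjamini-Hochberg over all genes) and a fold change above 1.5. In IDPN-3wk, 9 axoneme genes were downregulated, 18% of those tested, against 1.21% of all genes. No transport gene was called by edgeR, 2 were lower at an unadjusted p under 0.05, and DESeq2 called 1 (Bbs9). In IDPN-7wk, 8 axoneme genes were downregulated, 16% of those tested, against 3.13% of all genes, and 1 transport gene, Bbs9, was (4.76% of 21). No member was upregulated at either time by edgeR or by DESeq2, where 0.438% and 2.00% of all genes were upregulated by edgeR. At an unadjusted p under 0.05, 2 members were higher in IDPN-3wk and none in IDPN-7wk. Over all 15517 genes, 1339 and 1665 were lower and 1105 and 1327 higher at that threshold in IDPN-3wk and IDPN-7wk. Later counts at an unadjusted p against control are to be read beside these. Cfap77, Dnah2, Dnah7, Dnah9 and Drc1 were called at both times, and 13 members were called in all.

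Groups that did not overlap, with every exposed rat below every control, were found for 17 of 50 axoneme genes and 3 of 21 transport genes in IDPN-3wk, against 10.9% of all genes. In IDPN-7wk they were found for 27 of 50 axoneme genes and 5 of 21 transport genes, against 17.1% of all genes. All 12 axoneme genes called at either time were below every control in all 6 exposed rats, which is in part a result of the choice by call.

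**Figure D2:**
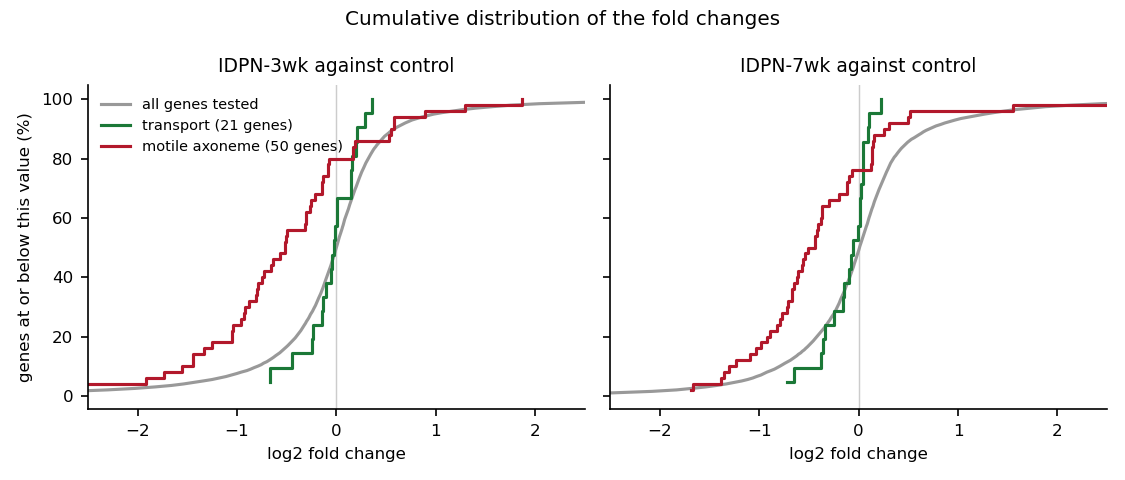
Percent of genes (vertical axis) at or below a given log2 fold change (horizontal axis) for the 50 tested axoneme genes, the 21 transport genes and all 15517 genes tested, with IDPN-3wk on the left and IDPN-7wk on the right. Over the middle of the range the axoneme curve lies to the left of the curve of all genes, with medians of -0.52 and -0.47, the curves cross near both ends, and the transport curve rises steeply around 0.

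For the following account the members were grouped by the structure their protein belongs to. This grouping was made after the values were seen.

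Outer dynein arms drive the beat of motile cilia, and Dnah5, Dnah9 and Dnah11 encode their heavy chains. Dnah9 (ENSRNOG00000004171) was at 47.1, 59.3 and 52.5 CPM in the controls, at 16.7, 11.6 and 13.7 CPM in IDPN-3wk and at 21.3, 18.1 and 25 CPM in IDPN-7wk. Every exposed rat was thus well below the lowest control, and the log2 fold changes were -1.92 ± 0.19 (SE, adjusted p = 0.00158) and -1.30 ± 0.19 (adjusted p = 0.00332). This was the member with the smallest adjusted p in IDPN-3wk, and both calls held under all 16 alternatives that recomputed single genes. Dnah5 (ENSRNOG00000048363) was at 32.7, 40.7 and 57.9 CPM in controls, 28.1, 32.5 and 15.2 CPM in IDPN-3wk and 21.0, 17.1 and 17.8 CPM in IDPN-7wk. Its highest IDPN-3wk rat almost reached the lowest control, while the IDPN-7wk rats lay close together below them. Dnah5 was called in IDPN-7wk (-1.23 ± 0.29, adjusted p = 0.0347), with -0.79 ± 0.29 in IDPN-3wk (adjusted p = 0.215). In IDPN-3wk it was called with a covariate for the libraries with fewer detected genes (adjusted p = 0.0219) and without those 3 libraries (adjusted p = 0.0398). The IDPN-7wk call was lost without control replicate 2 or 3 or any one of the IDPN-7wk replicates, with adjusted p up to 0.127.

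Not called by edgeR were Dnah11, at 113 ± 23.5, 68.4 ± 17.0 and 87.6 ± 4.84 CPM in the 3 groups (mean ± SD, n = 3, adjusted p = 0.0983 and 0.338), and the intermediate chains Dnai1 and Dnai2, with log2 values of -0.31 for both in IDPN-3wk and -0.54 and -0.44 in IDPN-7wk. Dnah11 was called in IDPN-3wk by DESeq2 (adjusted p = 0.0123) and without the 3 libraries with fewer detected genes (adjusted p = 0.0348). Dnah17 was near the floor, at 0 to 1.41 CPM. Of the 6 tested outer arm genes, 1 and 2 were called in IDPN-3wk and IDPN-7wk, and the medians were -0.52 and -0.49.

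Inner dynein arms shape the waveform, and Cfap43 and Cfap44 form the tether that anchors one of them to the doublet. Of the 7 tested genes, 4 were called in IDPN-3wk, more than in any other structural group, and 2 in IDPN-7wk, as many as for the outer arms or the doublets, with medians of -1.04 and -0.61. Dnah7 (ENSRNOG00000060984), an inner arm heavy chain, was at 43.2, 47.6 and 43.5 CPM in controls, at 24.6, 20.5 and 19.7 CPM in IDPN-3wk and at 19.0, 21.1 and 12.5 CPM in IDPN-7wk. The controls were tightly grouped and the exposed rats were far below them, with a log2 fold change of -1.05 ± 0.20 in IDPN-3wk (adjusted p = 0.0305) and -1.35 ± 0.20 in IDPN-7wk (adjusted p = 0.00387). Dnah2 (ENSRNOG00000052688), another inner arm heavy chain, was at 15.2, 17.1 and 13.8 CPM in controls, 5.56, 5.59 and 2.71 CPM in IDPN-3wk and 5.21, 6.87 and 5.57 CPM in IDPN-7wk. It fell by 1.73 ± 0.31 (adjusted p = 0.0227) and 1.38 ± 0.31 (adjusted p = 0.0264) on the log2 scale.

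Cfap44 (ENSRNOG00000028077) was at 34.6, 34.2 and 51.3 CPM in controls, 12.5, 13.3 and 18.4 CPM in IDPN-3wk and 23.1, 22.3 and 24.1 CPM in IDPN-7wk. The IDPN-7wk rats stood between the IDPN-3wk rats and the controls without overlapping either. Cfap44 was called in IDPN-3wk (-1.44 ± 0.21, adjusted p = 0.0112) and missed the threshold in IDPN-7wk (-0.79 ± 0.21, adjusted p = 0.0566), where 5 of 16 alternatives called it, DESeq2 among them. Its partner Cfap43 (ENSRNOG00000036585) was at 43.8, 47.5 and 35.1 CPM in controls, 18.9, 16.9 and 25.6 CPM in IDPN-3wk and 33.9, 23.2 and 25.6 CPM in IDPN-7wk. It too was called in IDPN-3wk (-1.04 ± 0.21, adjusted p = 0.0405) and not in IDPN-7wk (-0.61 ± 0.21, adjusted p = 0.139), and the 2 IDPN groups overlapped. With a covariate for the libraries with fewer detected genes Cfap43 was called at both times, and without those 3 libraries in IDPN-7wk (adjusted p = 0.0246) and not in IDPN-3wk (adjusted p = 0.14). The difference between the IDPN groups did not pass for either gene (adjusted p = 0.215 for Cfap44 and 0.415 for Cfap43).

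The calls in this group rested on single libraries to different degrees. Dnah7 in IDPN-3wk was lost without any one control or IDPN-3wk replicate 2 or 3, without the 3 libraries with fewer detected genes, and with that set as a covariate (adjusted p up to 0.120), and its IDPN-7wk call was kept throughout. Dnah2 in IDPN-3wk was lost without control replicate 1 or 2 or IDPN-7wk replicate 3, and with only the 2 groups compared (up to 0.10), and in IDPN-7wk without any one control or IDPN-7wk rat (up to 0.120). Cfap43 was lost without any one control, IDPN-3wk replicate 1 or 2, or IDPN-7wk replicate 2 or 3, without the 3 libraries with fewer detected genes, and with only the 2 groups compared (up to 0.150). The IDPN-3wk call of Cfap44 held in all 16 alternatives.

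The nexin-dynein regulatory complex links neighbouring doublets. Drc1 (ENSRNOG00000024905), one of its base subunits, was at 68.5, 78.4 and 87.6 CPM in controls, 37.3, 39.8 and 43.7 CPM in IDPN-3wk and 48.6, 40.4 and 37.4 CPM in IDPN-7wk. Both exposed groups lay in the same range, far below the controls, and the log2 fold changes were -0.96 ± 0.14 (adjusted p = 0.0117) and -0.89 ± 0.14 (adjusted p = 0.00562). The IDPN-3wk call was lost without control replicate 2 and without the 3 libraries with fewer detected genes (adjusted p up to 0.112). The other 2 subunits had like values without passing the test. Drc3 had log2 values of -0.66 and -0.67 and Drc7 of -0.88 and -0.92.

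Radial spokes connect the doublets with the central pair. Rsph9 (ENSRNOG00000019474), a spoke head protein, was at 44.8, 44.8 and 41.4 CPM in controls, 22.7, 36.8 and 32.4 CPM in IDPN-3wk and 25, 25 and 24.4 CPM in IDPN-7wk. The IDPN-3wk rats were spread widely and the IDPN-7wk rats hardly at all, and edgeR called the IDPN-7wk change (-0.82 ± 0.18, adjusted p = 0.0228, against -0.51 ± 0.18 and adjusted p = 0.186 in IDPN-3wk). That call was lost without control replicate 1 or 2 or any one of the IDPN-7wk rats (adjusted p up to 0.0933). Rsph10b was at 59.4, 65.9 and 59.9 CPM in controls, 9.27, 33.1 and 25.7 CPM in IDPN-3wk and 36.7, 29.2 and 27.9 CPM in IDPN-7wk. Its exposed rats were all below the controls, those of IDPN-3wk widely spread, and edgeR did not call it (-1.45 ± 0.36, adjusted p = 0.0817, and -0.98 ± 0.36, adjusted p = 0.157). Rsph10b was called in IDPN-3wk by DESeq2 (adjusted p = 0.00232), with 10 counts in every library, and without IDPN-3wk replicate 1 (adjusted p = 0.0254) or the 3 libraries with fewer detected genes (adjusted p = 0.0286). It was called in IDPN-7wk with only the 2 groups compared, and without IDPN-3wk replicate 1 (adjusted p = 0.00583) or those 3 libraries (adjusted p = 0.00287). Rsph3, a spoke stalk protein, was not called and had positive log2 values of 0.58 and 0.14.

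The central apparatus is the pair of single microtubules in the axis of a motile cilium with its projections. All 5 tested genes assigned to it had lower fitted levels at both times, with medians of -1.05 and -0.65. Cfap69 (ENSRNOG00000006114) was at 49.5, 50.7 and 47.0 CPM in controls, 22.8, 16.4 and 31.7 CPM in IDPN-3wk and 33.9, 29.9 and 35.5 CPM in IDPN-7wk. It was the only one of them that edgeR called, in IDPN-3wk (-1.05 ± 0.21, adjusted p = 0.0384), and its IDPN-7wk value was -0.57 ± 0.21 (adjusted p = 0.168). The call was lost without any one library other than IDPN-3wk replicate 3, without the 3 libraries with fewer detected genes, and with only the 2 groups compared (adjusted p up to 0.129). DESeq2 called Cfap70 as well in IDPN-3wk. Without those 3 libraries, Cfap65 was called at both times and Cfap69 and Cfap70 in IDPN-7wk.

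Proteins inside the doublet microtubules and the filament-forming tektins stiffen the axoneme. Of the 12 tested genes of this kind, 2 were called at each time, and the medians were -0.44 and -0.47. Cfap77 (ENSRNOG00000028805) was at 69.4, 72.4 and 64.5 CPM in controls, 37.3, 25.8 and 23.7 CPM in IDPN-3wk and 19.9, 19.8 and 24.2 CPM in IDPN-7wk. It had the smallest adjusted p of all members in IDPN-7wk, where the log2 fold change was -1.69 ± 0.19 (adjusted p = 0.000699), after -1.25 ± 0.18 in IDPN-3wk (adjusted p = 0.0112). The IDPN-3wk call was narrowly lost without control replicate 1 or 2 (adjusted p up to 0.0518).

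Cfap126 (ENSRNOG00000034221), which is needed for basal body docking and positioning and is named in the study's list of genes common to its models, was at 67.9, 78.9 and 56.2 CPM in controls, 42.3, 42.5 and 45.5 CPM in IDPN-3wk and 41.3, 37.7 and 45.5 CPM in IDPN-7wk. The exposed rats of both times lay between 37.7 and 45.5 CPM, below every control. It was called in IDPN-7wk (-0.71 ± 0.14, adjusted p = 0.0176) and not in IDPN-3wk (-0.64 ± 0.14, adjusted p = 0.0596), where DESeq2 called it (adjusted p = 0.00151), as did the fits with 10 counts in every library (adjusted p = 0.0435) and without control replicate 3 (adjusted p = 0.0355). The study chose it in part on these libraries, and the IDPN-7wk call was lost without control replicate 1 or 2 or IDPN-7wk replicate 1 or 2 (adjusted p up to 0.0803). Cfap36, the Cfap gene with the highest mean CPM, was not called at either time (-0.14 ± 0.15, adjusted p = 0.700, and -0.099 ± 0.15, adjusted p = 0.803).

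Among the tektins, Tekt3 (ENSRNOG00000027212) was at 32.1, 25.2 and 22.9 CPM in controls, 12.6, 13.9 and 15.6 CPM in IDPN-3wk and 18.5, 16.4 and 15.3 CPM in IDPN-7wk. It was called in IDPN-3wk (-0.93 ± 0.19, adjusted p = 0.0384) and had -0.67 ± 0.19 in IDPN-7wk (adjusted p = 0.0677). The call was lost without any one library other than control replicate 3 and IDPN-3wk replicate 3, with only the 2 groups compared, and with a covariate for the libraries with fewer detected genes, and without them (adjusted p up to 0.163). In IDPN-7wk it was gained with DESeq2, with only the 2 groups compared, with that covariate, and without those libraries (adjusted p = 0.00624 to 0.0491). Tekt2, at 157 ± 17.0, 142 ± 11.2 and 111 ± 11.4 CPM, passed the adjusted p in IDPN-7wk (-0.51 ± 0.12, adjusted p = 0.0316) but with a fold change under 1.5. Tekt5, with 52 counts in all, was at 0 in all IDPN-3wk rats and in 2 controls.

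**Figure D3:**
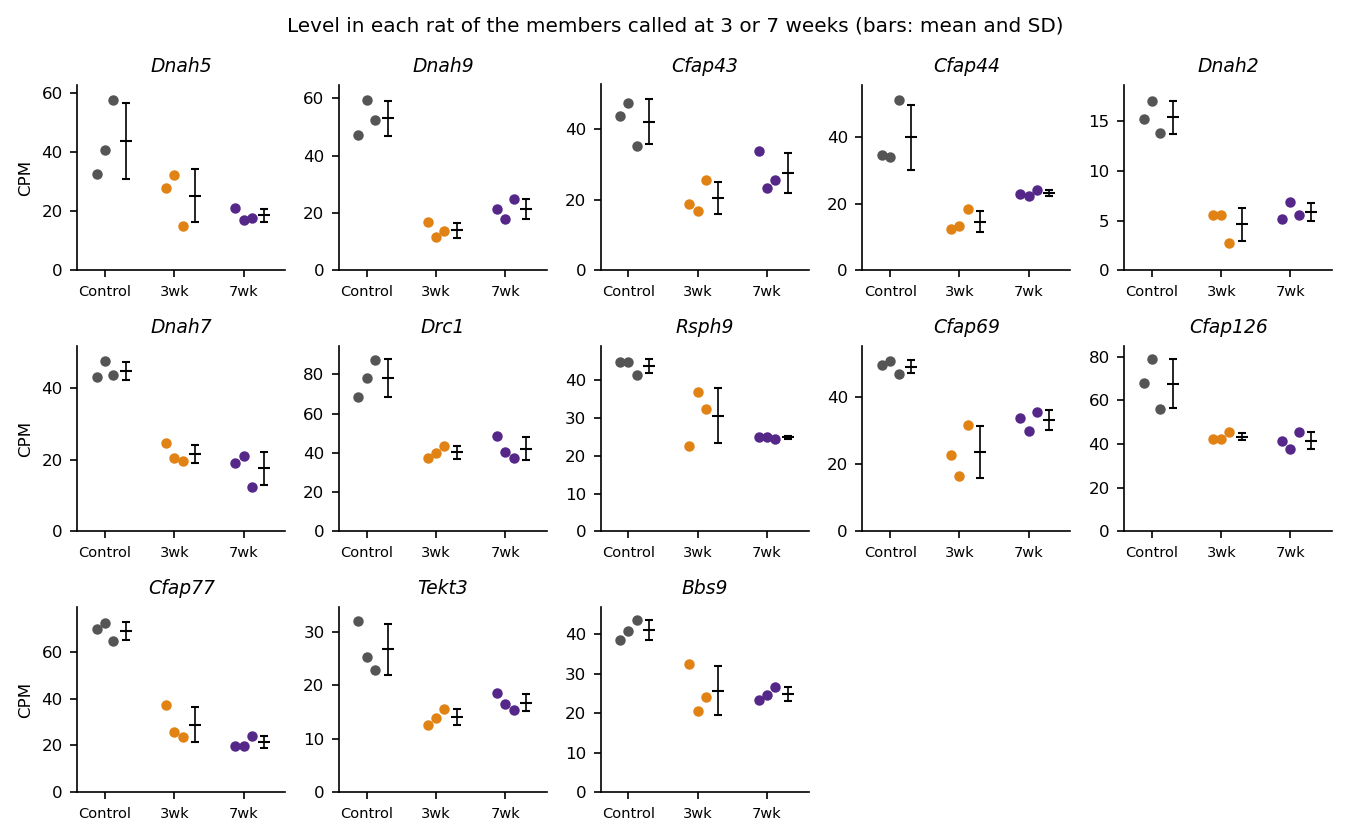
Level in CPM (vertical axis, from 0) of the 13 members called as DEGs at 3 or 7 weeks, 1 panel per gene, with 1 point per rat in control, IDPN-3wk and IDPN-7wk and the mean and SD of each group beside the points. In Dnah9, Dnah2, Dnah7, Cfap77 and Drc1 the exposed rats of both times are far below the controls, and the IDPN-7wk mean exceeds the IDPN-3wk mean in Cfap43, Cfap44, Cfap69, Dnah9, Dnah2, Drc1 and Tekt3.

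Dynein arms are put together in the cytoplasm by assembly factors before transport into the cilium. The 5 members with Dnaaf symbols did not share the downward shift. Of these 5, 4 had higher fitted levels in both exposed groups, with medians of 0.53 and 0.14, and none was called by edgeR or DESeq2. Not all assembly factors behaved so, because Lrrc6, which has an older symbol and is not a member, was called lower at both times, as given below. Dnaaf2 was at 26.6, 30.1 and 20.4 CPM in controls, 41.6, 41.4 and 32.2 CPM in IDPN-3wk and 27.4, 25 and 32.4 CPM in IDPN-7wk. All IDPN-3wk rats exceeded all controls, but the difference did not pass (0.58 ± 0.19, adjusted p = 0.171). Dnaaf5 was at 42.5, 49.7 and 52.1 CPM in controls and 67.2, 92.2 and 52.6 CPM in IDPN-3wk (0.55 ± 0.19, adjusted p = 0.186), and its IDPN-7wk value was 0.14. The 2 highest IDPN-3wk values of Dnaaf2 and of Dnaaf5 belonged to replicates 1 and 2, the libraries with fewer detected genes, and for Dnaaf5 the alternatives other than leaving out 1 library gave 0.19 to 0.56 in that comparison. Outside the libraries with fewer detected genes, 1 IDPN-3wk rat stood against 2 controls. There Dnaaf1 to Dnaaf5 differed by 0.033, 0.18, -0.19, -0.29 and 0.19 in log2 CPM.

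**Figure D4:**
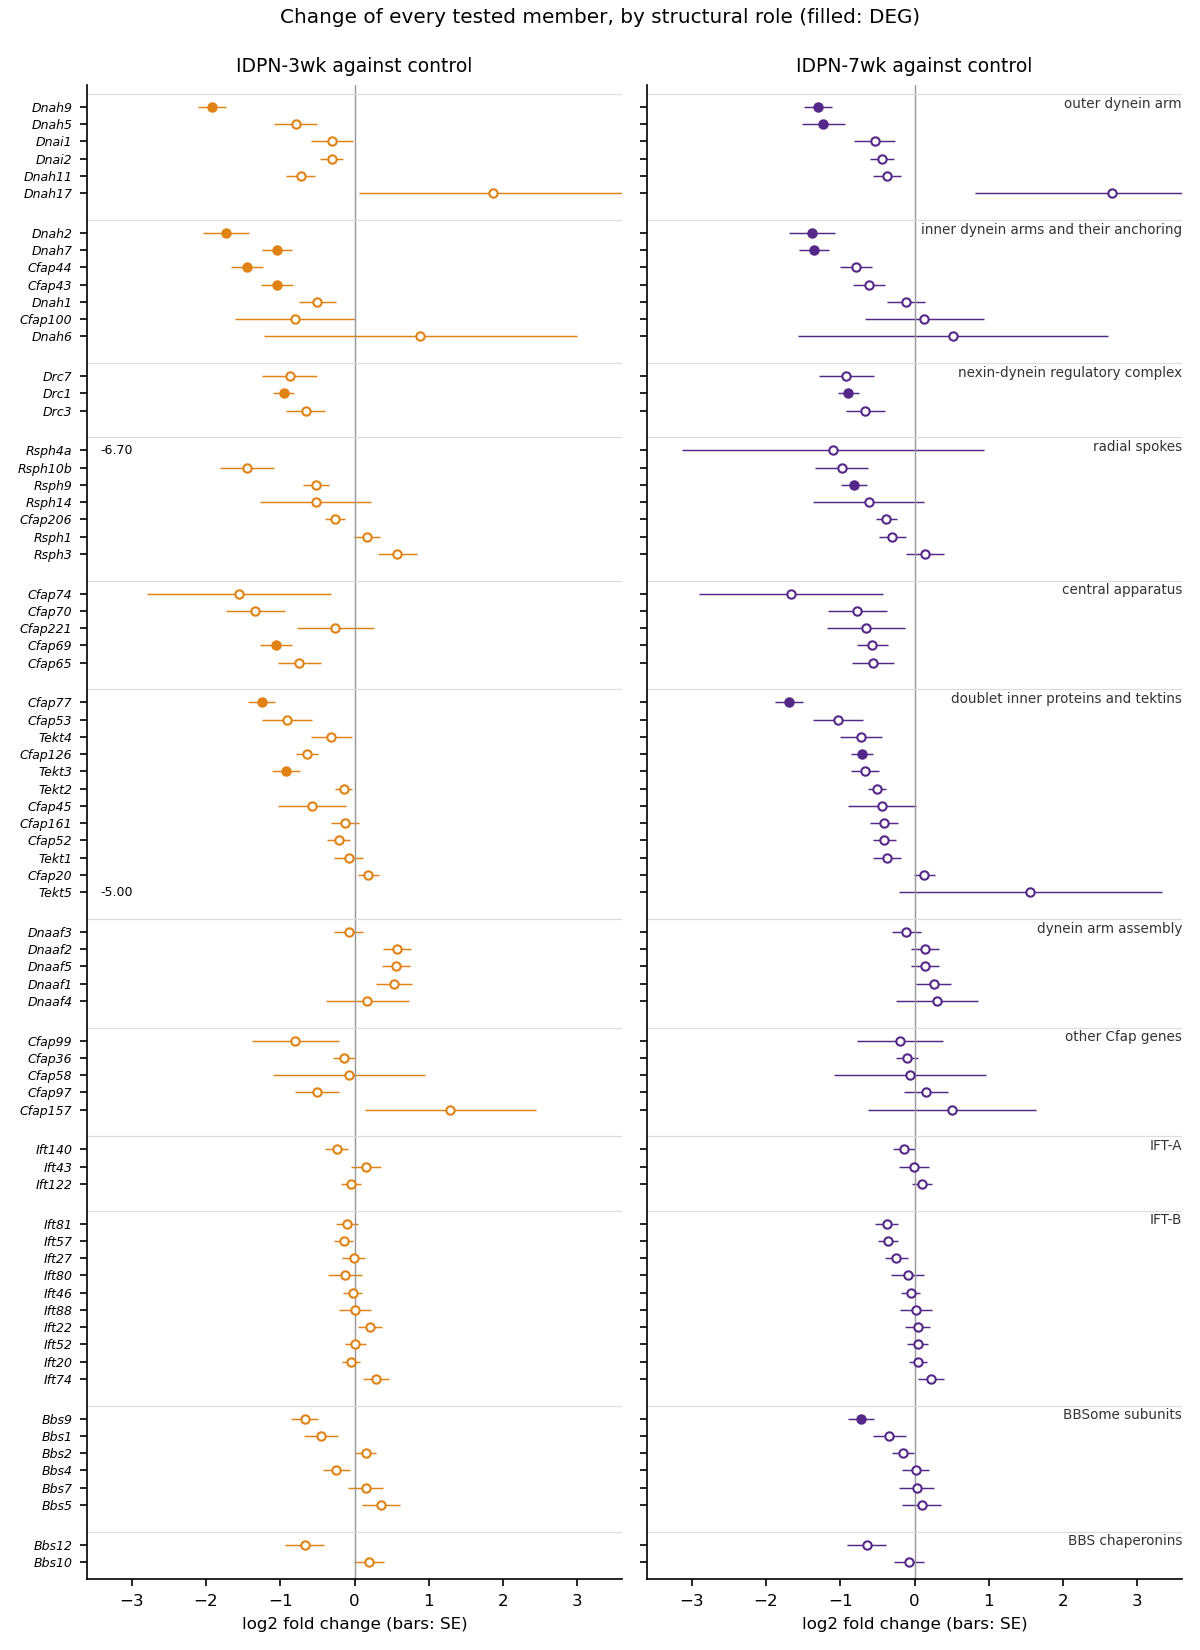
Log2 fold change against control (horizontal axis, bars show the SE of the fit) of the 71 tested members in IDPN-3wk (left) and IDPN-7wk (right), ordered by structural role, with filled points for DEGs and numbers for the values off the scale. Most genes of the dynein arms, regulatory complex, spokes, central apparatus and doublets lie left of 0, 4 of the 5 assembly factors with Dnaaf symbols lie right of 0, and the IFT genes lie between -0.38 and 0.28.

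In the transport class the IFT genes showed little change. The 13 Ift genes had log2 fold changes from -0.24 to 0.28 in IDPN-3wk, and from -0.38 to 0.23 in IDPN-7wk. None was called by edgeR or DESeq2, and at an unadjusted p under 0.05 none was lower in IDPN-3wk and 2 were in IDPN-7wk. The medians were -0.048 and -0.0095 for the 3 genes of IFT-A, the complex of retrograde transport, and -0.020 and -0.018 for the 10 genes of IFT-B, the complex of anterograde transport. Ift122, an IFT-A subunit, was at 147, 135 and 131 CPM in controls, 114, 131 and 155 CPM in IDPN-3wk and 169, 127 and 149 CPM in IDPN-7wk, with full overlap of the groups. The largest downward values in IDPN-7wk were those of Ift81 (-0.38 ± 0.15, adjusted p = 0.203) and Ift57 (-0.36 ± 0.13, adjusted p = 0.154), both of IFT-B. Ift57 was at 63.5, 64.7 and 60.8 CPM in controls, 57.0, 56.5 and 57.6 CPM in IDPN-3wk and 40.8, 50.7 and 56.1 CPM in IDPN-7wk. Its exposed rats were thus all below the controls.

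The Bbs genes varied more. Bbs9 (ENSRNOG00000015189), a BBSome subunit, was at 38.6, 40.7 and 43.5 CPM in controls, 32.5, 20.6 and 24.1 CPM in IDPN-3wk and 23.3, 24.5 and 26.7 CPM in IDPN-7wk. It was lower in every exposed rat and was called in IDPN-7wk (-0.72 ± 0.18, adjusted p = 0.0422), while its value in IDPN-3wk was nearly the same (-0.67 ± 0.18, adjusted p = 0.0983). The IDPN-7wk call was lost without any one control, any one IDPN-7wk rat or IDPN-3wk replicate 3, and with a covariate for the libraries with fewer detected genes (adjusted p up to 0.164), and the IDPN-3wk value was called by DESeq2 and without IDPN-3wk replicate 1. Bbs12, a chaperonin-like protein for BBSome assembly, was at 8.79, 11.8 and 11.0 CPM in controls, 5.45, 6.83 and 7.59 CPM in IDPN-3wk and 6.03, 8.14 and 6.05 CPM in IDPN-7wk. Its groups did not overlap, but the change was not called (-0.67 ± 0.26 and -0.64 ± 0.26, adjusted p = 0.247 and 0.207). Bbs1 had log2 values of -0.45 and -0.34 and Bbs2 of 0.15 and -0.16, also not called. At an unadjusted p under 0.05, 2 of 21 transport genes were lower in IDPN-3wk and 4 in IDPN-7wk, against 1339 and 1665 of all 15517 genes.

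Between IDPN-7wk and IDPN-3wk no member was a DEG by edgeR, where 0.135% of all genes were called lower and 0.348% higher. At an unadjusted p under 0.05, 4 of 50 axoneme genes were lower and 5 higher in IDPN-7wk and no transport gene passed. Of all 15517 genes, 1157 were lower and 983 higher at that threshold. DESeq2 called 1 member, Dnah9, higher and none lower, where it called 279 of all 19717 genes higher and 306 lower. The class medians were -0.050 for both classes. Dnah9 had a log2 value of 0.62 ± 0.19 in edgeR (adjusted p = 0.201), Cfap44 of 0.66 ± 0.21 (adjusted p = 0.215) and Cfap77 of -0.44 ± 0.18 (adjusted p = 0.322).

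The promoters of the members were read for motifs of the RFX factors, which act on ciliary genes through the palindromic X-box, and of forkhead factors. RefSeq promoters of build GRCr8 were matched by symbol for 63 of 76 members, 46 of the axoneme and 17 of the transport class, and the 250 bases before each listed start were searched on both strands. The X-box consensus was found for 6 of 46 axoneme genes (13.0%) and for none of the transport genes, against 1.27% of all 27457 genes in the promoter table. Its match overlapped that of the half-site GTTGCCA in Cfap44, Dnaaf2 and Dnah2. The half-site was found for 7 of 46 axoneme genes (15.2%), 2 of 17 transport genes (11.8%, Ift81 and Ift88) and 4.02% of all genes. The forkhead core GTAAACA was found for 6.52% of axoneme genes, no transport gene and 3.54% of all genes. These matches are a description of letters, not of binding.

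The stretches with an X-box are shown, since the letters were shared by outer arm, inner arm, tether, tektin and assembly genes, along with the half-site of Drc1. The half-sites of Cfap161, Cfap20 and Tekt1, none of them called, are not shown. Capitals mark the match, and each is written 5′ to 3′ on the strand of its gene.
Cfap44, chr11:69789906-69789942, minus strand: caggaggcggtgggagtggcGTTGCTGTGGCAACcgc
Dnah2, chr10:54766038-54766091, minus strand: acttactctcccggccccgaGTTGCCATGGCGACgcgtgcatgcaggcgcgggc
Dnai1, chr5:61525960-61526012, plus strand: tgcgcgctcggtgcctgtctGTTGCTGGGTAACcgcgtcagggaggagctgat
Dnai2, chr10:100258940-100258992, plus strand: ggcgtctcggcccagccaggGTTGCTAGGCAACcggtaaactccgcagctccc
Tekt2, chr5:143907728-143907780, minus strand: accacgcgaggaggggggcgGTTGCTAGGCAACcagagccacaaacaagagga
Dnaaf2, chr6:93406378-93406431, minus strand: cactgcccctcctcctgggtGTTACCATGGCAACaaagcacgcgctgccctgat
Drc1, chr6:31779257-31779296, minus strand: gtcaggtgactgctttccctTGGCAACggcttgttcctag

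The genes with an X-box differed in their change. Cfap44 and Dnah2 were called in IDPN-3wk with -1.44 and -1.73, Dnai1 and Dnai2 had -0.31 each, Tekt2 had -0.15, and Dnaaf2 had 0.58. In IDPN-7wk Dnah2 was called with -1.38. The others had -0.79 (Cfap44), -0.54 (Dnai1), -0.51 (Tekt2), -0.44 (Dnai2) and 0.14 (Dnaaf2). A link between the X-box and the change was not tested. Of the 12 axoneme genes called at either time, 2 held the X-box (16.7%) and 3 the half-site (Cfap44, Dnah2 and Drc1, 25%). The forkhead core was found for 2 of them (Cfap43 and Tekt3, 16.7%). Of the factors themselves, Rfx3 was at 22.5, 26.1 and 28.2 CPM in controls, 20.9, 13.6 and 13.2 CPM in IDPN-3wk and 16.5, 13.7 and 21.2 CPM in IDPN-7wk. Its exposed rats were below the controls without passing the test (-0.69 ± 0.24 and -0.58 ± 0.24, adjusted p = 0.196 and 0.215). Rfx2 was spread from 7.54 to 24.9 CPM within the controls, with log2 values of 0.22 and 0.19. None of the 10 tested factors of ciliary genes was called by edgeR (2 and 1 lower at an unadjusted p under 0.05), and DESeq2 called 1, Myb, lower in IDPN-3wk. Foxj1 was not analysed here.

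Axonemal genes outside the symbol families gave like values. Of 52 such genes tested, 8 were downregulated in IDPN-3wk (15.4%) and 9 in IDPN-7wk (17.3%), against 1.21% and 3.13% of all genes. The medians were -0.37 and -0.35. Tppp3, a microtubule-bundling protein, was upregulated in IDPN-7wk (1.22 ± 0.25, adjusted p = 0.0166), and DESeq2 also called it higher in IDPN-3wk. Wdr63, Wdr78, Wdr66 and Lrrc6 are older symbols, in the table, of genes since renamed into the Dnai, Cfap and Dnaaf families, which is why the rule on symbols did not take them. Wdr63 and Wdr78 encode dynein intermediate chains. Wdr78 was at 42.5, 47.4 and 44.1 CPM in controls, 25.8, 23.5 and 23.5 CPM in IDPN-3wk and 17.3, 20.9 and 22.8 CPM in IDPN-7wk. Wdr63 was at 157, 182 and 157 CPM in controls and between 76.0 and 99.8 CPM in the exposed rats. Both were called at both times (Wdr78 with -0.88 and -1.13, Wdr63 with -0.83 and -0.89), as was Lrrc6 (-1.74 and -1.42), an assembly factor of dynein arms.

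Hydin, a large protein of the central apparatus, was at 74.4, 80.9 and 72.8 CPM in controls, 24.2, 28.7 and 20.6 CPM in IDPN-3wk and 23.2, 23.3 and 26.3 CPM in IDPN-7wk. Its levels in exposed rats were about alike at both times (log2 -1.63 and -1.65, adjusted p = 0.000817 and 0.000217). Spag6l, another central apparatus protein, fell by 1.80 and 1.59 on the log2 scale. Spef2, also of the central apparatus, fell by 0.99 and 0.88. Ttc29 was also called at both times, Wdr66 in IDPN-3wk, and Spag8 and Ccdc40 in IDPN-7wk.

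Transport genes outside the Ift and Bbs families again moved little. Of 37 tested, none was called in IDPN-3wk (4 lower at an unadjusted p under 0.05) and 1 in IDPN-7wk, Rab3ip, which acts early in cilium formation (-0.61, adjusted p = 0.0482). The medians were -0.069 and -0.097. Rab3ip, like Cfap126, is in the study's list of genes downregulated in all its comparisons, IDPN-3wk included. That list was made in part from these libraries. Dync2h1, the heavy chain of the retrograde IFT motor, was at 54.8, 66.0 and 73.0 CPM in controls, 52.0, 37.9 and 30.9 CPM in IDPN-3wk and 31.2, 34.5 and 44.2 CPM in IDPN-7wk. All exposed rats were below the controls, and it was not called by edgeR (-0.68 and -0.82, adjusted p = 0.151 and 0.050) but was by DESeq2 at both times, which also called Arl13b lower in IDPN-3wk. Of 43 genes of the transition zone and basal body, which gate and anchor the cilium, none was called in IDPN-3wk (2 lower at an unadjusted p under 0.05) and 1 in IDPN-7wk, Cep83 (-1.76, adjusted p = 0.0393), and DESeq2 called 1 and 2, with medians of -0.13 and -0.18.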

How the data were processed

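RNA from the vestibular epithelium of 9 rats, 3 per group, was made into SMARTseq2 libraries, without molecular identifiers and under 1 batch label. The authors mapped reads to Rnor6.0 with STAR (2.5.3a per the submitters' processing notes) and made estimated counts per gene with RSEM, for which the notes give version 1.3.0. The values deposited are these estimated counts, in whole numbers and not normalized, and they were used directly.

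Members and gene lists were chosen with earlier results of these data known. Named members were DEGs of any comparison, the 3 smallest p per class and comparison, the most abundant member of each family, and Cfap126. Members outside this rule were also named where a structural group or a limit of the data was described. R 4.3.3 was used with edgeR 4.0.16 (filterByExpr, TMM, robust quasi-likelihood test, a single fit of the 9 libraries with 6 residual degrees of freedom, Benjamini-Hochberg over 15517 genes), and the pipeline was tested on simulated data. Log2 CPM had a prior count of 2. Alternatives were DESeq2 1.42.0, RLE size factors, no filter or 10 counts in every library, only the 2 groups compared, other fold thresholds, the 3 libraries that detected fewer genes marked by a covariate or left out, and each library left out in turn. With 3 rats against 3, an exact two-sided permutation test cannot fall below p = 0.1, so single genes were tested in the model. Library totals ran from 31100118 to 46018385 counts, and the floor of 3 counts covers counting error only. Replicate numbers were given in accession order and only name libraries. Replicates differed beyond sampling noise (lowest chi-square per gene 19.2).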

Additional observations from a re-analysis of the deposited data

How the results depend on the processing

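The count of downregulated axoneme genes in IDPN-3wk, 9, was 5 with only the 2 groups compared and 2 to 9 with 1 library left out. It was 3 without control replicate 1, 2 without control replicate 2, and 5 without IDPN-3wk replicate 2 or IDPN-7wk replicate 3. The share of all genes called lower, 1.21%, moved as well. It was 0.653% with only the 2 groups compared and 0.379% to 2.03% with 1 library left out (0.379% and 0.387% without control replicate 1 and 2). In IDPN-7wk, the count of 8 became 14 with only the 2 groups compared, 5 at a fold change above 2, 16 without the 3 libraries with fewer detected genes, and 4 to 10 with 1 library left out. It was 5 without control replicate 1 or IDPN-7wk replicate 3 and 4 without control replicate 2 or IDPN-7wk replicate 1 or 2. Over all genes, the 3.13% called lower became 5.08% with only the 2 groups compared and 1.83% at a fold change above 2. It was 5.44% without the 3 libraries with fewer detected genes and 1.68% to 3.73% with 1 library left out. DESeq2 gave 13 and 11 axoneme genes, where it called 2.9% and 4.27% of all genes lower. The axoneme median in IDPN-3wk, -0.52, was -0.65 without the 3 libraries with fewer detected genes and -0.63 to -0.37 with 1 library left out (-0.37 without control replicate 2), and no class median moved further than the spread between replicates in the other settings. The count of transport genes in IDPN-3wk, 0, was 1 with DESeq2, and 0 to 1 with 1 library left out (1 without IDPN-3wk replicate 1). In IDPN-7wk, the count of 1 was 0 at a fold change above 2, 0 with the set of libraries as a covariate, and 0 to 1 with 1 library left out. The count of members higher in IDPN-7wk than in IDPN-3wk, 0, was 1 with DESeq2, where 279 of all 19717 genes were higher. Fits with fewer libraries have fewer degrees of freedom, and the cause of the other changes was not tested.

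For the named members, alternatives other than leaving out 1 library gave 525 values, of which 12 lost and 23 gained a call, and none turned direction while called. With 1 library left out there were 675 values, of which 60 lost and 6 gained a call. Depth limits the members near the floor of 0.0611 to 0.101 CPM (Dnah6, Dnah17, Rsph4a and Tekt5), whose fold changes have wide errors. No paired analysis was possible because the replicate numbers were given in accession order and pair no animals.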
